A study of Mus musculus with 15 samples.

Results

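The mouse line cS5Alo was compared with C57BL/6N mice, written WT, in CD8-selected lymph node cells. These 10 libraries, 5 of each genotype, were chosen by their genotype labels from a series of 15; the other 5 come from the line cS5Ahi. The labels do not spell out the line names; as background known of the study, both lines express activated STAT5A, cS5Alo less of it, and the driving promoter and any clone are not stated in the labels. All mice were untreated and 15 weeks old. For WT, nodes from 2 to 3 animals went into each sample, according to the labels. Whether a cS5Alo sample is 1 mouse is not stated there, so a p-value reflects variation among these samples, part of which may be technical. Positive selection with magnetic beads took cells by surface CD8, which leaves room for other CD8-bearing cells and for tissue carried along, and polyadenylated RNA was sequenced.

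STAT5A is a transcription factor that cytokine receptors for interleukin 2, interleukin 7 and interleukin 15 switch on through JAK kinases. In CD8 T cells it is known for survival genes such as Bcl2, for feedback inhibitors such as Cish and Socs2, and for the upkeep of memory cells. Memory cells carry surface receptors such as CXCR3 and the interleukin 18 receptor, whereas naive cells carry the chemokine receptor CCR7.

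Promoters of a pair of textbook STAT5 targets that lay on opposite sides of 0 in this comparison are shown first, because STAT5 binds the palindrome TTCNNNGAA. Each is the 250 bases before an annotated start in RefSeq (GRCm38.p6, minus strand, printed 5′ to 3′), at chr16:23981284-23981533 for Bcl6, a transcriptional repressor, and chr1:106714291-106714540 for Bcl2, a survival protein. Capitals mark matches to TTCNNNGAA, which reads the same on both strands.
Bcl6: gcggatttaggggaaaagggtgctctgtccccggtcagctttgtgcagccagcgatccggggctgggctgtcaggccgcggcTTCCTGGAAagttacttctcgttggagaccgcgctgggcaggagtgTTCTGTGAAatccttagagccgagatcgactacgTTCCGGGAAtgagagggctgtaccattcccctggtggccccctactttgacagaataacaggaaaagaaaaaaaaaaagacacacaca
Bcl2: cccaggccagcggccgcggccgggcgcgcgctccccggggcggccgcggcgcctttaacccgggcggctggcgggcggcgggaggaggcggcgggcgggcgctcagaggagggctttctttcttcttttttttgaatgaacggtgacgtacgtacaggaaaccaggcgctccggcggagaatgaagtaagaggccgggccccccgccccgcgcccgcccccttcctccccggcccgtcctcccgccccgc
The Bcl6 window held 3 matches and the Bcl2 window none. A second annotated start of Bcl6 (chr16:23988853-23989102) held 1 match; the window with more matches is printed. Of 20 STAT5 target genes with an entry 5 had a match (25%), against 703 of 9583 tested genes with an entry (7.34%). A match is a description of the letters and not of binding.

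Reads in genes ranged from 12177642 to 26721115 in WT and from 16059604 to 27487785 in cS5Alo. Levels are given as CPM, a gene's reads scaled to the library's total over tested genes after adjustment by a TMM factor. That factor was 0.978 in cS5Alo 4, the lowest of these libraries, and 1.05 in WT 3, the highest. Levels are compared for the same gene between libraries. CD8 identity held in both groups: Cd8a, a chain of the CD8 coreceptor, stood at 2301, 2454, 2159, 2232 and 2584 CPM in WT 1 to 5 and at 2315, 2188, 2272, 2418 and 2363 CPM in cS5Alo 1 to 5, and these ranges overlapped. The log2 fold change of Cd8a was -0.02 (95% interval -0.22 to 0.18). None of 12 CD8 T cell identity genes was free of overlap, against 1.71% over all genes, a share at which such a count says little.

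Several libraries stood apart before any comparison. In WT 2, WT 3, WT 4 and cS5Alo 5 the ribosomal protein gene Rplp1 was at 2344, 1783, 2694 and 2146 CPM, against 7026 and 5493 CPM in WT 1 and WT 5 and 3650 to 5599 CPM in cS5Alo 1 to 4. Septin7, which encodes a cytoskeletal GTPase, ran the other way, at 431, 377, 369 and 440 CPM in those 4 libraries and 125 to 259 CPM in the rest. Both genes were chosen after their values were seen, from those with the largest weights on the second principal component (21.5% of the variance among the 10 libraries). That component does not itself make this split, since WT 4 scored 20.7 on it, beside 36.9 for WT 1 and 28.9 for WT 5, against -43.0 for WT 2, -11.3 for WT 3 and -39.9 for cS5Alo 5. By the 2 genes the split took 3 of 5 WT and 1 of 5 cS5Alo libraries. WT 3 and WT 4 also had the most reads outside genes, 39.8 and 40.8%, against at most 30.2% in the other 8. WT 1 and WT 2 were run in lane 2 and the other 8 in lane 3 of the same flow cell, per the file labels.

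Stat5a itself was higher in every cS5Alo library than in any WT library. It stood at 90.2, 81.9, 71.4, 74.6 and 95.7 CPM in WT and at 114, 117, 107, 100.3 and 100.3 CPM in cS5Alo. The groups did not overlap, but the highest WT library and the lowest cS5Alo library were close. The log2 fold change was 0.38 ± 0.12 (SE, 95% interval 0.12 to 0.63), with an edgeR quasi-likelihood Benjamini-Hochberg adjusted p of 0.292 over all genes. On mean log2 CPM the two-sided exact permutation p was 0.00794, the smallest that 252 arrangements allow, or 0.0317 adjusted over the 4 values tested so. Without WT 3 and WT 4 the log2 fold change was 0.26, and without WT 2, WT 3, WT 4 and cS5Alo 5 it was 0.24. Here and below, the latter setting keeps WT 1 and WT 5 as the sole WT libraries. Stat5b, the neighbouring paralog, overlapped throughout, with a log2 fold change of -0.06 (-0.29 to 0.17) and an exact permutation p of 0.611.

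**Figure D1:**
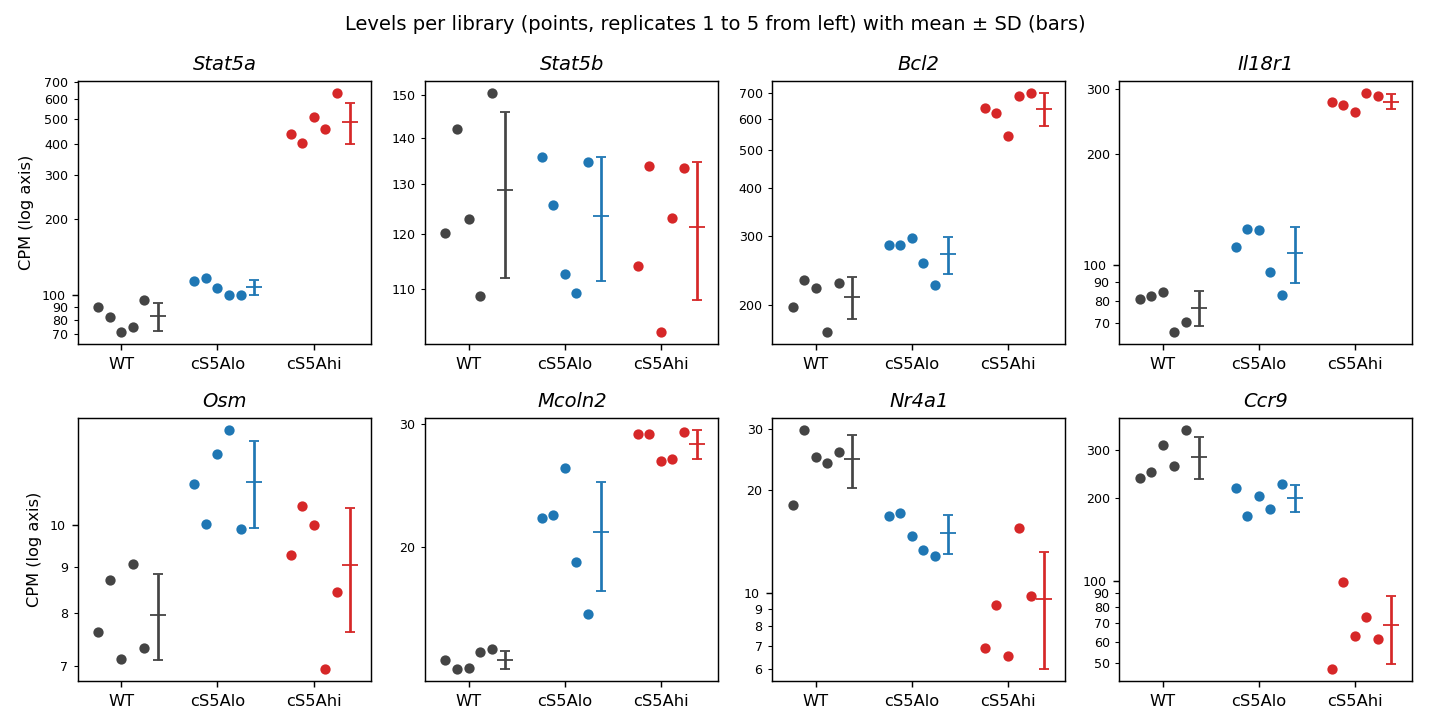
CPM (log axis) of 8 genes in 5 WT, 5 cS5Alo and 5 cS5Ahi libraries, as points for replicates 1 to 5 from left and bars for mean ± SD. Stat5a lies at 71.4 to 95.7 CPM in WT and 100.3 to 117 CPM in cS5Alo, while Stat5b overlaps. The cS5Ahi libraries were run on another flow cell.

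Across the genome no gene passed the test. With edgeR's quasi-likelihood test, 0 of 11979 genes were called (0%), with 1356 at an unadjusted p under 0.05 (379 with the salivary covariate and 2768 with WT 2 and WT 3 as the sole WT libraries, the lowest and highest of the alternatives), while DESeq2 called 89 and limma voom 0. The smallest adjusted p by edgeR was 0.219. In 205 genes (1.71%) the groups did not overlap, 119 higher in cS5Alo (0.993%) and 86 lower (0.718%). With library size as the sole scaling these were 91 and 111, and the median of all genes moved from -0.0003 to -0.04. A fitted fold of 1.5 or more was reached by 1247 genes (10.4%), 317 upward (2.65%) and 930 downward (7.76%). Of the latter, 355 were under 1 CPM and 467 at 1 to 10 CPM. The downward excess turned over under 3 alternatives: limma voom gave 732 upward and 623 downward, the Y-linked covariate 904 and 779, and WT 2 and WT 3 as the sole WT libraries 1389 and 1020.

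The size of change that the fit could bound depended on the level of the gene. That fit took in all 15 libraries, so its intervals rest on a spread pooled with cS5Ahi. The median SD of log2 CPM was 0.21 in cS5Ahi, 0.24 in cS5Alo and 0.33 in WT. The intervals may thus be narrower than WT and cS5Alo alone would give. The median absolute log2 fold change was 0.16, against a median SE of 0.17. The 95% interval lay inside a 2-fold change either way for 9514 genes (79.4%) and inside 1.5-fold for 6766 (56.5%). For genes of 10 to 100 CPM the 2-fold share was 97.2%, for 1 to 10 CPM it was 59.8%, and under 1 CPM it was 1.37%. A 2-fold difference in a gene under 1 CPM was therefore seldom excluded by its own interval.

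**Figure D2:**
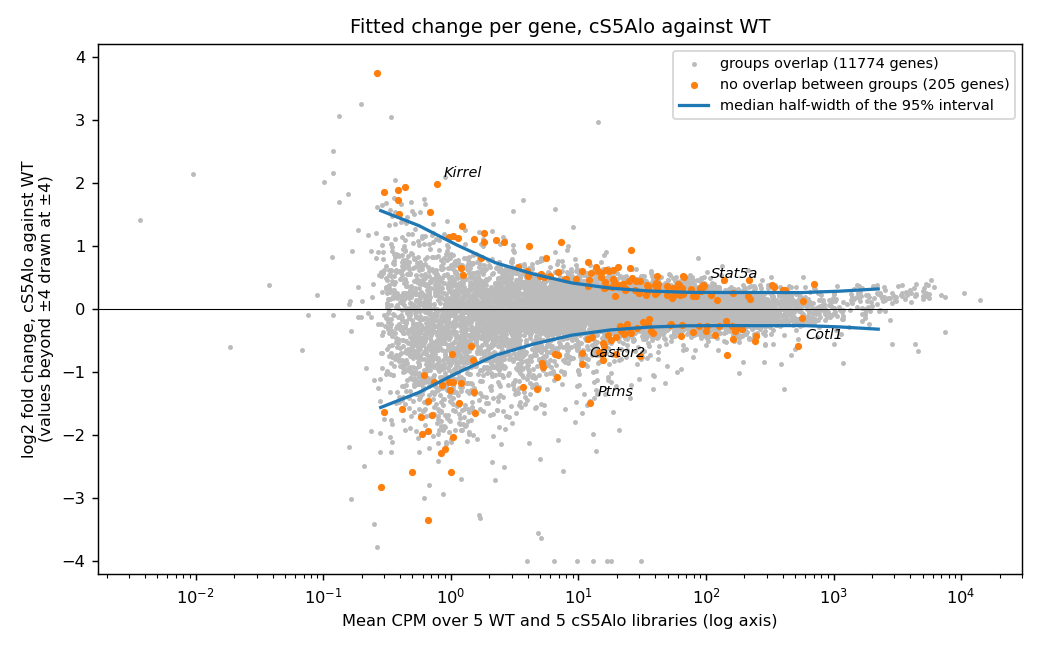
Fitted log2 fold change of cS5Alo against WT for 11979 genes against mean CPM (log axis); orange points are the 205 genes without overlap and the blue lines the median half-width of the 95% interval. The lines narrow as the level rises.

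Among genes of at least 10 CPM without overlap, 85 were higher and 52 lower in cS5Alo, and 20 of these 137 differed by 1.5-fold or more. Mcoln2, which encodes an endolysosomal cation channel, was at 13.8, 13.4, 13.4, 14.1 and 14.3 CPM in WT and 21.96, 22.2, 25.95, 19.0 and 16.0 CPM in cS5Alo. The WT libraries lay within 1 CPM of each other and every cS5Alo library was above them. Its log2 fold change was 0.61 (0.36 to 0.86), with an edgeR adjusted p of 0.219, or 0.0311 without cS5Alo 5. Vcpkmt, a lysine methyltransferase gene, was at 0.74 (0.44 to 1.04), the largest upward value of this class apart from the pseudogene Klra13-ps (0.94), whose near-identical family makes its count uncertain; Vcpkmt went, from 7.79 to 10.4 CPM in WT and 13.0 to 17.5 CPM in cS5Alo. Other upward values were 0.65 for Ndufb2 (a subunit gene of respiratory complex I), 0.62 for Rpp38 (ribonuclease P), 0.61 for Exosc3 (the RNA exosome) and 0.61 for Rbm8a (the exon junction complex).

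The largest downward value was that of Ptms, which encodes parathymosin. It was at 13.1, 11.1, 16.1, 30.8 and 19.9 CPM in WT and 9.10, 6.32, 3.42, 3.99 and 9.53 CPM in cS5Alo, and WT 4 was the highest. Its log2 fold change was -1.49 (-2.21 to -0.77). Castor2, a paralog of an arginine sensor of the mTORC1 pathway, had the smallest p of all genes in this class, with 10.95 to 16.9 CPM in WT against 6.90 to 8.25 CPM in cS5Alo and a log2 fold change of -0.88 (-1.20 to -0.55). Tuba1b, an alpha tubulin gene, was at -0.72 (-1.05 to -0.39), and Cotl1, an actin-binding protein gene, was at -0.59 (-0.84 to -0.33). Kirrel, an adhesion molecule gene, had the largest value among the 10 genes of smallest p, 1.97 (1.19 to 2.76), but at no more than 1.82 CPM in any of the 10 libraries. None of these genes passed the edgeR test with all libraries. In at least 1 of the 26 alternatives, which include DESeq2, the adjusted p of Ptms, Castor2, Tuba1b, Cotl1 and Kirrel was under 0.05. The same held for Mcoln2, Vcpkmt, Klra13-ps, Rpp38 and Exosc3 of the upward genes, but not for Ndufb2 and Rbm8a.

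STAT5 target genes did not lie together on one side. Of 24 tested members 0 were called by edgeR, 1 was free of overlap (1.71% over all genes), 8 had positive and 16 negative values, and the median log2 fold change was -0.11, against -0.0003 over all genes. Without WT 2, WT 3, WT 4 and cS5Alo 5 the median was -0.18, whereas with WT 2 and WT 3 as the sole WT libraries it was 0.05. That 1 member, a count near the background, was Osm, which encodes the cytokine oncostatin M: 7.63, 8.71, 7.13, 9.05 and 7.33 CPM in WT and 11.1, 10.01, 11.96, 12.7 and 9.89 CPM in cS5Alo. Its log2 fold change was 0.48 (0.17 to 0.79). Bcl2 was at 197, 232, 221, 170 and 228 CPM in WT and 286, 285, 297, 256 and 225 CPM in cS5Alo, where cS5Alo 5 alone fell within the WT range. Its log2 fold change was 0.36 (0.13 to 0.60).

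Bcl6 lay in the other direction, at -0.68 (-1.14 to -0.23). It stood at 47.2, 34.1, 38.9, 43.2 and 94.98 CPM in WT and 41.4, 28.3, 27.0, 27.3 and 37.4 CPM in cS5Alo, with WT 5 far above the other WT libraries. Without WT 5 the Bcl6 value was -0.34. Bcl6 is also a marker of CD4 T follicular helper cells. Cd4 was at 84.7 CPM in WT 5 against 1.08 to 12.5 CPM in the other WT libraries. Cd4 is also a thymocyte marker, and the immature thymocyte list (7.15 against 5.24 to 5.74 in mean log2 CPM) and Dntt (79.7 CPM) were high in WT 5 as well. The part of either cell type in the Bcl6 value was not tested. Among feedback inhibitors, Cish was at -0.18 (-0.70 to 0.34) and Socs2 at -0.87 (-1.71 to -0.03). Il2ra, the high-affinity chain of the interleukin 2 receptor, was at -0.18 (-0.48 to 0.12), so that its interval held no upward change of 1.5-fold. In cS5Ahi against WT, which shares the WT libraries, the same gene was at 2.09. All cS5Ahi libraries were run on another flow cell, so line and flow cell cannot be told apart in that value.

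Genes of memory CD8 T cells had the highest median of the T cell lists. Of 24 members 0 were called and 0 were free of overlap (1.71% over all genes). The median was 0.35, 16 were positive, and 11 had an unadjusted p under 0.05 upward and 1 downward. Over all genes 5.37% had such a p upward and 5.95% downward. Il18r1, a chain of the interleukin 18 receptor, was at 80.9, 82.6, 84.6, 65.98 and 70.2 CPM in WT and 112, 126, 125, 95.7 and 83.0 CPM in cS5Alo. Again cS5Alo 5 alone lay within the WT range, and the log2 fold change was 0.49 (0.25 to 0.74). Eomes and Tbx21, which encode transcription factors of memory and effector cells, were at 0.43 (0.12 to 0.74) and 0.56 (0.12 to 1.00). Il2rb, the receptor chain shared by interleukins 2 and 15, was at -0.01 (-0.30 to 0.28).

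The memory list moved with the libraries that stand apart. Its mean log2 CPM was 5.75, 5.12, 5.17, 4.75 and 5.53 in WT 1 to 5 and 5.68, 5.74, 5.62, 5.62 and 5.37 in cS5Alo 1 to 5. WT 1 lay above every cS5Alo library, and the lowest values were those of WT 2, WT 3 and WT 4. Cxcr3 shows this: it was at 131 and 126 CPM in WT 1 and WT 5, at 63.9, 45.3 and 43.1 CPM in WT 2 to 4, and at 137, 153, 111, 118 and 95.1 CPM in cS5Alo. The list median rose from 0.35 to 0.404 without WT 1 and WT 2, the libraries of lane 2, and to 0.397 with lane as a term. It was 0.12 without WT 3 and WT 4 and 0.11 with reads outside genes as a covariate. Without WT 2, WT 3, WT 4 and cS5Alo 5 it was 0.12. Leaving out those 4 libraries keeps WT 1 and WT 5, with 202 and 125 CPM of Y-linked reads, against at most 2.29 CPM in cS5Alo. Y-linked reads and genotype cannot be told apart in that setting. The effector and cytotoxic list went from 0.17 to 0.02 without those 4 libraries, and Gzmb, the granzyme B gene, was at 0.20 (-0.43 to 0.84).

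**Figure D3:**
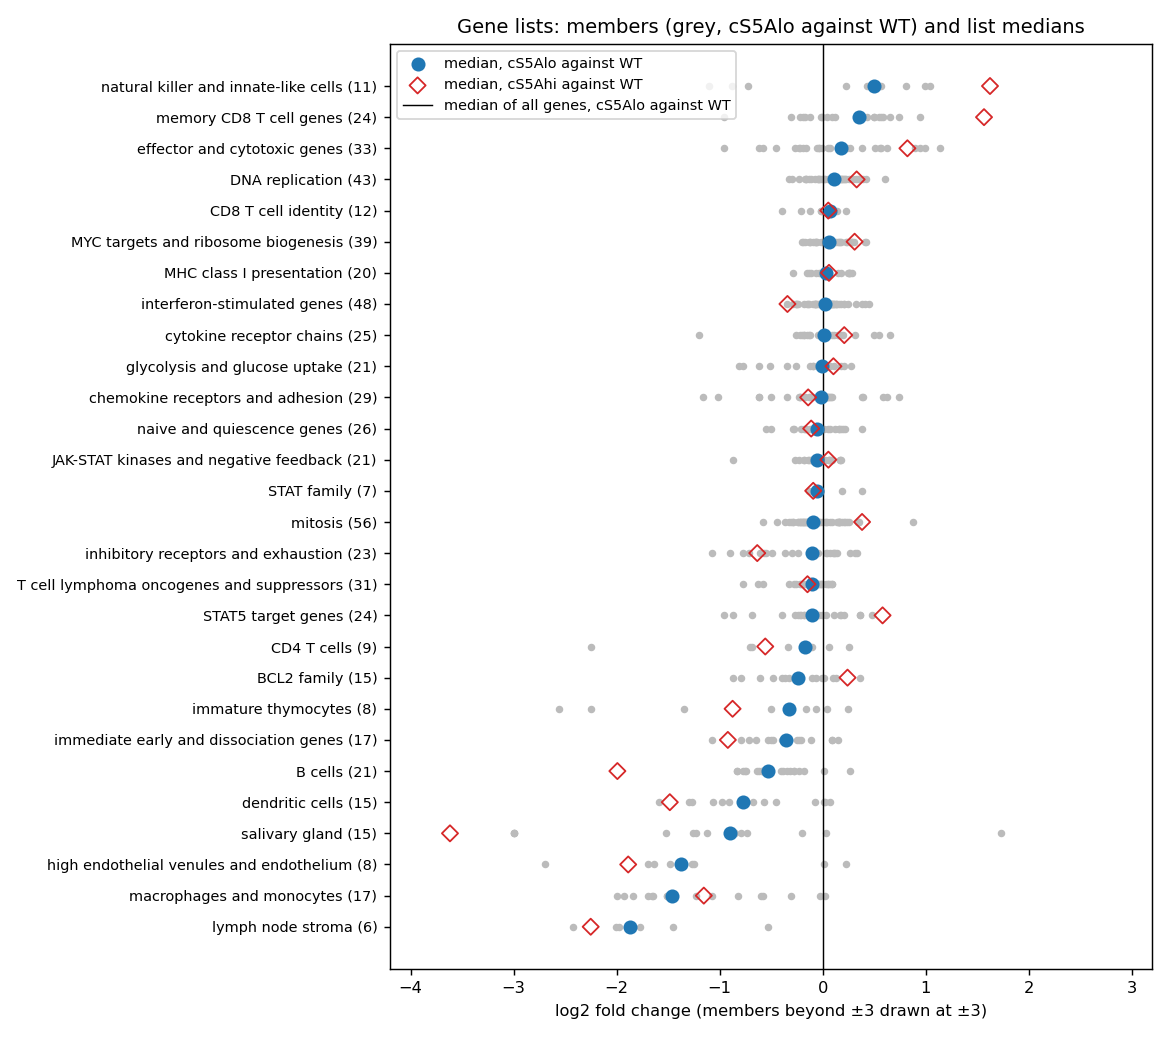
log2 fold change of list members (grey) and list medians for cS5Alo against WT (blue) and cS5Ahi against WT (red diamonds), with the number of tested members in brackets. The memory median is 0.35, the STAT5 target median -0.11, and lists of stroma, macrophages and endothelium lie lowest. The cS5Ahi libraries were run on another flow cell, so line and flow cell cannot be told apart in the red values.

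Naive cell genes lay close to 0. Ccr7 was at 0.07 (-0.24 to 0.38), and the median of 26 members was -0.06. Ccr9, a chemokine receptor gene of gut homing, was one of 2 members without overlap (1.71% over all genes): 239, 251, 314, 263 and 357 CPM in WT and 218, 173, 205, 183 and 225 CPM in cS5Alo, without overlap. Its log2 fold change was -0.50 (-0.84 to -0.17). The other was Btg1, an antiproliferative gene, at 0.12 (-0.06 to 0.30). Itgae, the integrin chain CD103, was also lower without overlap, at -0.34 (-0.61 to -0.07), and so was Ccr8 at under 2 CPM.

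Immediate early genes, which answer to receptor signals and to tissue handling, had 14 of 17 tested members below 0 and a median of -0.36. Nr4a1, an orphan nuclear receptor gene, was at 18.03, 29.96, 25.0, 23.9 and 25.8 CPM in WT and 16.8, 17.1, 14.6, 13.4 and 12.9 CPM in cS5Alo, without overlap and with a log2 fold change of -0.71 (-1.13 to -0.30). Egr1 was at -0.65 (-1.04 to -0.26). The median was -0.355 without WT 2, WT 3, WT 4 and cS5Alo 5. The labels do not give the time from dissection to lysis.

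Of 25 cytokine receptor chains 0 were free of overlap (1.71% over all genes) and their median was 0.01. For 21 JAK-STAT kinases and feedback genes, Socs2 (above) among them, the median was -0.06. Il7r, the interleukin 7 receptor chain, was at -0.13 (-0.48 to 0.22). The median was -0.24 for 15 BCL2 family genes, -0.10 for 23 inhibitory receptor genes and -0.11 for 31 lymphoma genes. Cxcr4, a chemokine receptor gene, was at -1.01 (-1.52 to -0.51), from 117, 234, 339, 341 and 194 CPM in WT to 125, 164, 119, 91.0 and 106 CPM in cS5Alo; WT 1 lay within the cS5Alo range.

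The median was 0.11 for 43 DNA replication genes, -0.10 for 56 mitosis genes, 0.06 for 39 MYC target and ribosome biogenesis genes, -0.005 for 21 glycolysis genes and 0.02 for 48 interferon-stimulated genes. Without WT 2, WT 3, WT 4 and cS5Alo 5 the mitosis median was -0.44, with reads outside genes as a covariate it was -0.32, and without WT 5 it was 0.155.

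Most lists of other cells had negative medians, and their transcripts varied widely among WT libraries. In bulk samples fewer cells of a type and less RNA per cell cannot be told apart. The median was -0.54 for 21 B cell genes, -0.77 for 15 dendritic cell genes, -1.46 for 17 macrophage and monocyte genes and -1.87 for 6 stromal genes, with 0 called by edgeR; DESeq2 called the stromal chemokine gene Cxcl13 (adjusted p = 0.029). Summed B cell transcripts ranged from 498 to 1593 CPM in WT and from 687 to 932 CPM in cS5Alo, so the groups overlapped. The whole stromal list summed to 5.49 to 26.5 CPM in WT and 3.03 to 4.96 CPM in cS5Alo. The 95% interval lay inside a 2-fold change for 0 of 6 stromal and 2 of 17 macrophage and monocyte genes. It did so for 6 of 21 B cell and 5 of 15 dendritic cell genes. WT 2 was low in macrophage transcripts: Lyz2, lysozyme, was at 23.7, 2.47, 31.5, 36.8 and 20.6 CPM in WT.

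Natural killer and innate-like genes had a median of 0.49 over 11 members, and the 2 tested skeletal muscle genes one of 0.24. Of the 11, 8 were positive and 3 negative, with 4 upward and 1 downward at an unadjusted edgeR p under 0.05. Fcer1g was negative under all 26 alternatives (-1.33 to -0.52). Upward values without overlap were found for 2 of the 11, against 0.993% of all genes. These were Klra3 at 0.99 (0.33 to 1.66) and Klra4 at 0.80 (0.12 to 1.49), members of a family of near-identical receptors whose reads may be split between copies. Without WT 3 and WT 4 the median was 0.19.

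Transcripts of salivary gland, which adjoins the cervical nodes, were uneven in both groups. Bpifa2, a salivary secretory protein gene, was at 2229, 744, 635, 3695 and 401 CPM in WT and 10.6, 799, 47.0, 175 and 3227 CPM in cS5Alo. The groups overlapped: cS5Alo 1, cS5Alo 3 and cS5Alo 4 lay below every WT library, whereas cS5Alo 5 was near the highest. The salivary list had a median of -0.90, with 13 of 15 members negative. WT 5 stood out in another way, with the thymocyte gene Dntt, which encodes a DNA polymerase of receptor gene assembly, at 79.7 CPM against at most 14.5 CPM in the other WT libraries.

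Sex-linked transcripts also differed within WT. The 4 Y-linked genes summed to 202, 0.411, 0.212, 67.01 and 125 CPM in WT 1 to 5 and to at most 2.29 CPM in cS5Alo. Xist was at 4.67 CPM in WT 1, at 1829 and 630 CPM in WT 4 and WT 5, which had both, and at 1490 to 2429 CPM in cS5Alo. The labels used here give no sex. Sex and genotype are thus partly confounded, and WT 2 and WT 3, without Y-linked reads, were the WT libraries that resembled cS5Alo in this.

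**Figure D4:**
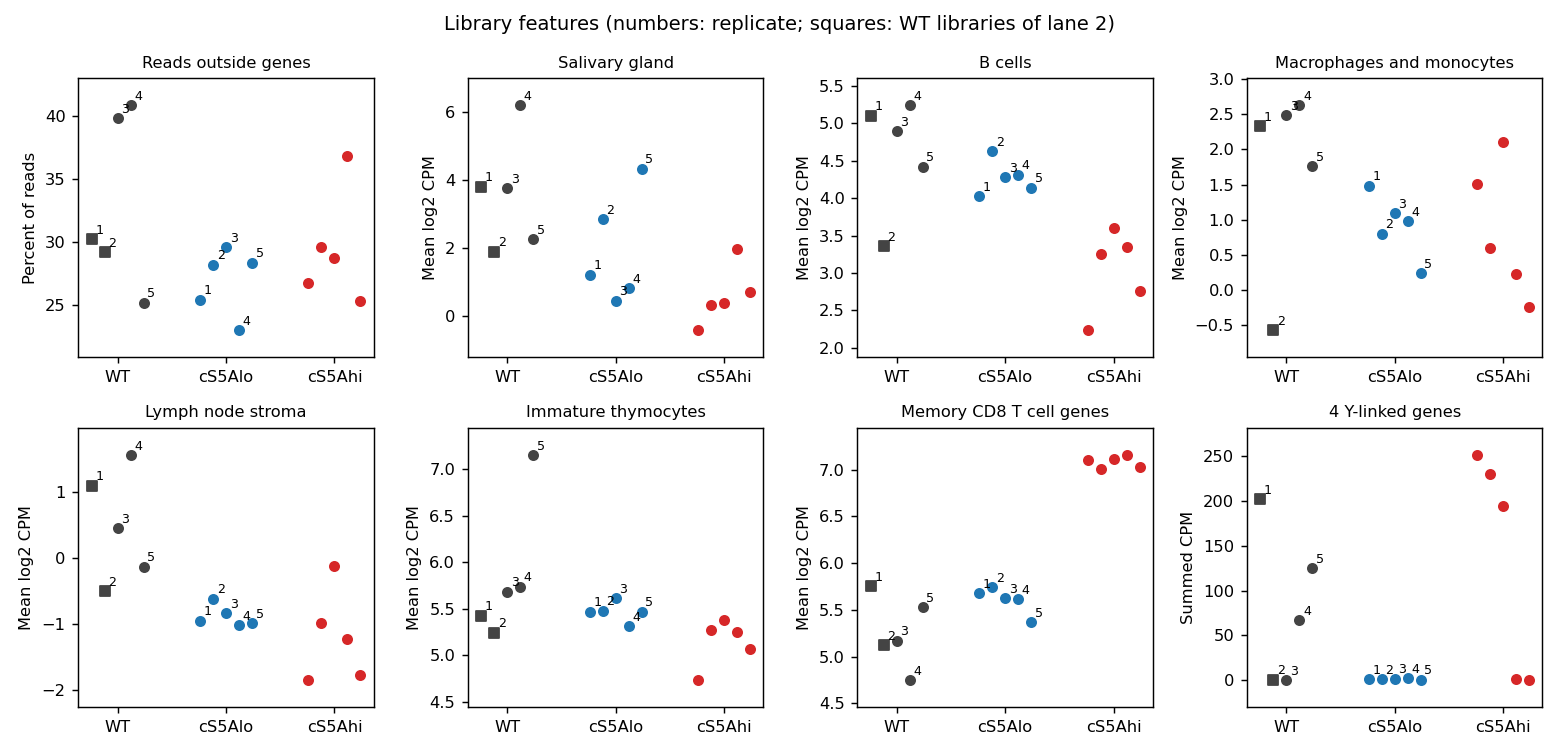
Reads outside genes (percent), mean log2 CPM of 6 gene lists and summed CPM of 4 Y-linked genes per library, with replicate numbers and squares for the WT libraries of lane 2. WT 3 and WT 4 lie at 39.8 and 40.8% outside genes, WT 5 leads the thymocyte list, and cS5Alo libraries have at most 2.29 CPM of Y-linked reads.

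WT libraries were more spread than cS5Alo libraries. The median SD of log2 CPM was 0.33 in WT and 0.24 in cS5Alo, and the WT SD was the larger in 8906 of 11979 genes (74.3%). The SD exceeded 1 in 1177 genes in WT and 341 in cS5Alo. Pairwise correlations of log2 CPM across genes, which are not independent replicates, averaged 0.952 (0.935 to 0.972) in WT and 0.978 (0.968 to 0.986) in cS5Alo. Genes with the widest WT spread at 10 CPM or more included A2ml1, salivary (Dcpp2, Dcpp3), sex-linked (Ddx3y, Kdm5d, Eif2s3y, Xist), and CD4 T cell (Cd4) transcripts and Ccl8, a chemokine gene.

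**Figure D5:**
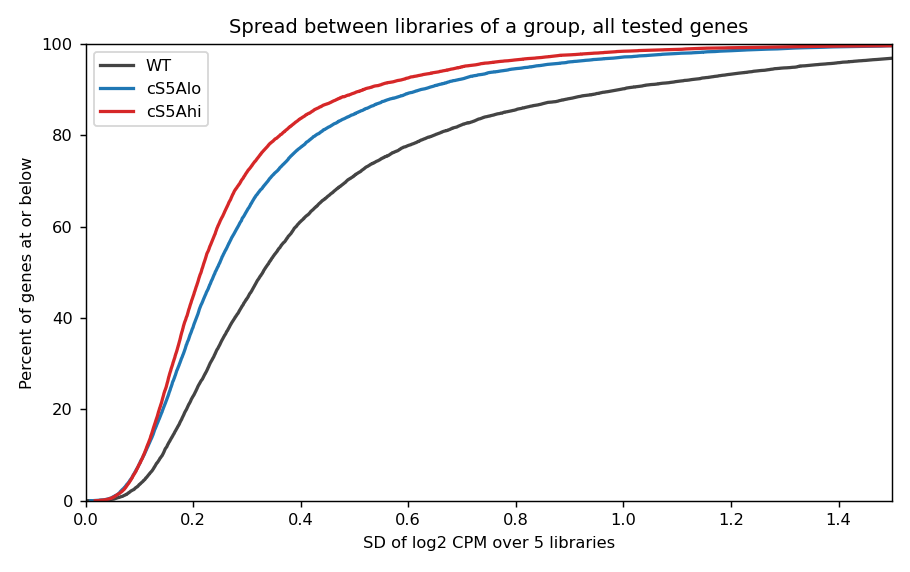
Percent of tested genes at or below a given SD of log2 CPM over the 5 libraries of each group. The WT curve lies to the right, with a median of 0.33 against 0.24 in cS5Alo.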

How the data were processed

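The authors deposited raw counts, 1 file of whole numbers per sample. The submitters' processing notes name cutadapt, TopHat 1.4.1 and HTSeq 0.6.1p1 and the build mm9; strand setting: not given in the sources. Of 21025 gene entries 20662 were matched by accession to RefSeq (GRCm38.p6), whose coordinates are used for promoters alone, and 5 summary entries were left out.

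Genes were filtered with filterByExpr (minimum count 10, minimum total 15), scaled with TMM factors and tested with edgeR 4.0.16 (R 4.3.3, robust quasi-likelihood) as a contrast in 1 fit over all 15 libraries; a call is a Benjamini-Hochberg adjusted p under 0.05. Logarithms used a prior count of 2. The fit was tested on simulated data. DESeq2 1.42.0, limma 3.58.1, other scalings, covariates and left-out libraries were alternatives. Lists are described by counts and medians. Members and lists were chosen with earlier results of these data known. Named genes were Stat5a, Stat5b, CD8 identity genes, the 8 largest rises and falls without overlap at 10 CPM or more, the 10 smallest p, 10 widest in WT, and up to 3 members of each list; other list members were chosen after their values were seen. Chi-square per degree of freedom between libraries of a group was 10.1 to 118, far above sampling noise. A few genes of the rule and lists are left unreported.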

Additional observations from a re-analysis of the deposited data

Results flagged for a closer look

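Of 222 groups of 5 libraries examined for a library far from the rest, 11 met Dixon's 95% limit (4.95%), where chance gives about 1 in 20. WT 2 held 5 of them: Itgae was high at 234 CPM (172.5 to 187 in the other WT libraries), and Lyz2 at 2.47 CPM, Ccl8 at 0.262 CPM, the macrophage and monocyte list at a mean log2 CPM of -0.568 and the fat tissue list at -0.057 were low. WT 5 was high for the immature thymocyte list at a mean log2 CPM of 7.15. Ndufb2 was low in WT 3 at 15.2 CPM, and Xist in WT 1 at 4.67 CPM. In cS5Alo 5, Cxcl13 was low at 0.243 CPM, as were the dendritic cell list at 2.63 and the natural killer and innate-like list at 1.86. The rate of 1 in 20 is a rough guide here. Ccl8 and Xist were examined because of their wide WT spread, and Lyz2 is itself a member of the macrophage and monocyte list. With a share so near that rate, the flags describe values and set no library apart by a test.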

How the results depend on the processing

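Stat5a kept its direction under all 26 alternatives, with a log2 fold change of 0.32 to 0.44 when each library was left out in turn, and passed the adjusted threshold in none. No called gene was found in the main test; leaving out each library gave 0 to 4 calls: Amdhd1 without WT 1, Laptm4b without WT 2, and Clec2d, Dnmt3a, Fam168a and Mcoln2 without cS5Alo 5. DESeq2 called 89. Of the alternatives added after seeing the data, the Y-linked covariate gave 2 calls, and WT 2 and WT 3 as the sole WT libraries 101. Leaving out WT 2, WT 3, WT 4 and cS5Alo 5, also added then, gave 7, among them Bcl6 (adjusted p = 0.049 by edgeR). That setting keeps WT 1 and WT 5 as the sole WT libraries, and WT 5 had by far the highest Bcl6 (above). Genes with a fitted fold of 1.5 or more numbered 1096 to 1549 with a library left out, 1920 in lane 3 alone, 5188 without the filter, 808 with the covariate of reads outside genes, 726 with the salivary and 746 with the B cell covariate, 2409 with WT 2 and WT 3 alone and 1872 without the 4 libraries. Genes without overlap numbered 245 to 617 with a library left out, 915 in lane 3 alone, 482 without WT 3 and WT 4, 2514 with WT 2 and WT 3 alone and 3453 without the 4 libraries; fewer samples make overlap less likely by construction. Otherwise the cause was not tested. Same-numbered libraries did not deviate together over all genes (correlations -0.32 to 0.20). The differences between libraries described above also enter these correlations, so a weaker pairing by number could be missed. With a replicate block 0 genes were called by edgeR, 600 had an unadjusted p under 0.05 and 1031 reached a fold of 1.5. Of the named genes' values under the alternatives, 2322 kept side and direction, 137 changed sign without a call and 28 passed the threshold, 23 of these by DESeq2. Intervals were widest for genes under 1 CPM.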
